A study of Homo sapiens with 8 samples.

Results

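The 10 genes described here encode secreted chemokines and inflammatory cytokines that tumor cells themselves can make: CXCL1, CXCL2, CXCL3, CXCL5, CXCL8, CXCL16, CCL20, IL1A, IL6 and LIF. They were chosen by name from the deposited table, and all 10 were found among its 62649 genes. The study grew AsPC-1 and PANC-1, both established human pancreatic cancer cell lines, as spheroids in methylcellulose medium for 3 days and then treated them for 24 h. In each line there were 4 groups: vehicle, 10 µM roseoflavin, 1 nM trametinib, and 10 µM roseoflavin with 1 nM trametinib. The genotype was given as WT for both lines, and no allele was engineered. Roseoflavin is an analogue of riboflavin, and trametinib inhibits the MEK kinases that activate ERK. Each group was 1 RNA-seq library, 8 in all, so the spread given for a line is over its 4 differently treated libraries, and each line stands for itself alone.

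CXCL1, CXCL2, CXCL3, CXCL5 and CXCL8 are CXC chemokines that attract neutrophils through the receptors CXCR1 and CXCR2. Their genes, like those of CCL20, IL1A, IL6 and LIF, can be switched on by NF-kB and AP-1, and many of their mRNAs carry AU-rich elements that shorten their life. CXCL16 is made as a membrane protein that binds CXCR6 and can be shed by ADAM10 and ADAM17, and CCL20 attracts cells that carry CCR6. IL-1 alpha signals through IL1R1, while IL-6 and LIF both signal through IL6ST to STAT3, with IL6R and LIFR as their own receptor chains. In pancreatic cancer such factors are known for recruiting neutrophils and for shaping fibroblasts and the tumor cells' own growth.

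The 5 neutrophil chemokines lie in a cluster on chromosome 4, and they share a short promoter sequence that is rare elsewhere, so it is shown before their levels. In GENCODE release 29 on GRCh38, CXCL8 (ENSG00000169429) spans chr4:73740506-73743716 and CXCL1 (ENSG00000163739) spans chr4:73869393-73871242, both on the plus strand. CXCL5 (ENSG00000163735, chr4:73995642-73998779), CXCL3 (ENSG00000163734, chr4:74036589-74038807) and CXCL2 (ENSG00000081041, chr4:74097035-74099293) follow on the minus strand. The stretches below are from the RefSeq promoter table on GRCh38.p14, read 5′ to 3′ on the strand of the gene, and the capitals mark the 9 bases GGAATTTCC, a form of the kappaB site that NF-kB binds. Each is the site with 10 bases on either side, from chr4:73869305-73869333, chr4:74099254-74099282, chr4:74038749-74038777, chr4:73998749-73998777 and chr4:73740468-73740496 in the order printed.
CXCL1: tggaactccgGGAATTTCCctggcccggg
CXCL2: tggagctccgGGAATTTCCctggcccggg
CXCL3: tggagctccgGGAATTTCCctggcccggc
CXCL5: atgagttcagGGAATTTCCccagcatccc
CXCL8: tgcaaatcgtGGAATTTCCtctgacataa

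The GGAATTTCC site began 78, 77, 78, 90 and 91 bases before the RefSeq start of CXCL1, CXCL2, CXCL3, CXCL5 and CXCL8. Those starts, at chromosome 4 positions 73869393, 74099195, 74038689, 73998677 and 73740569, differ from the GENCODE ends given above for all but CXCL1. GENCODE also has longer transcripts of CXCL2, CXCL3 and CXCL5 whose first exons cover the printed site, in the 5′ UTR for CXCL2 and CXCL5. Searched on both strands, it was present in 0.461% of the 35116 RefSeq promoters, each of which holds 250 bases before the start and 50 after it. The search for it was added after the sequences had been seen. Over the 110 bases before the RefSeq start, CXCL1 was 93.7% identical to CXCL2 and 90% identical to CXCL3, and CXCL2 was 88.4% identical to CXCL3. Identity of these 3 with CXCL5 or CXCL8, and of CXCL5 with CXCL8, was 44.0% to 55.0%. Over 250 bases the order of the 3 pairs was different, with 70.1% for CXCL1 and CXCL2, 81.4% for CXCL1 and CXCL3 and 73.4% for CXCL2 and CXCL3. Of the 10 genes, 8 had a promoter in the table; CXCL16 and LIF had none. The broader kappaB consensus, which overlaps the 9-base site, matched in 6 of the 8 (CXCL1, CXCL2, CXCL3, CXCL5, CCL20 and IL6) and in 5.91% of all promoters. The AP-1 motif TGANTCA, searched on both strands, matched in CXCL8 and IL1A and in 7.71% of all promoters. A match describes the letters only, and no binding was measured.

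Values are in TPM, a level per transcript length whose sum is equal for every library, so levels of different genes can be set side by side. TPM states no depth, but 82.5% to 85.7% of the low values in a library fell within 0.05 of a whole number of reads when multiplied by the GENCODE exon length, where 10% would by chance. For the members the length was let depart from GENCODE by up to 15%, by the least that gave whole reads in every library. The tolerance for a whole read grew with the read number, so any length met this rule for LIF. For the other abundant members it was a weak check of the read numbers. With the GENCODE lengths, inferred reads over all genes came to 19510327 to 28000835 per library. Read numbers and 95% intervals of a ratio given below rest on that inference and cover counting error only. Genes of the mitochondrial genome took 41.2% to 44.1% of all TPM in libraries of AsPC-1 and 22.8% to 25.6% in those of PANC-1, which lowers other genes' TPM more in AsPC-1. The labels call both lines pancreatic cancer-derived cells, and the ductal keratin KRT19 was at 943 TPM or more in each library. All 5 epithelial markers were higher in AsPC-1, where EPCAM was 1224 to 1485 TPM against 14.5 to 16.8 TPM in PANC-1, and 4 of 4 tested mesenchymal markers, VIM and SPARC among them, were higher in PANC-1. PTPRC, the pan-leukocyte marker, was at 0.02 TPM or lower, CD3E, FCGR3B and S100A8 were listed at 0, and endothelial markers summed to at most 0.10 TPM. Single markers of other cell types were nevertheless high in a line: LYZ at 1856 to 1970 TPM and LUM at 103 to 146 TPM in AsPC-1, and COL1A1 at 98.9 to 107 TPM in PANC-1. The leukocyte marker CD14 was at 3.3 to 4.1 TPM in AsPC-1 and 0.473 to 1.62 TPM in PANC-1, and CSF1R did not exceed 0.057 TPM. The fibroblast markers COL1A2, DCN and PDGFRB did not exceed 0.892 TPM in any library. Summed, the epithelial markers came to 7392 to 8509 TPM in AsPC-1 and 2709 to 3029 TPM in PANC-1 and the mesenchymal markers to 668 to 825 TPM and 3677 to 3924 TPM, and their part in the differences between the lines was not tested.

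The largest contrast in these genes was between the lines, and it split the neutrophil chemokines. PANC-1 carried mainly CXCL1, at 30.5 ± 2.47 TPM (SD, n = 4 libraries) against 3.33 ± 0.481 TPM in AsPC-1. AsPC-1 carried CXCL5 at 11.1 ± 3.54 TPM, with CXCL2 and CXCL3 near the level of its CXCL1. In PANC-1, CXCL2, CXCL3 and CXCL5 were each inferred from 8 reads or fewer per library. Like CCL20 and IL1A, they reached 1 TPM, the level needed to enter the test, in AsPC-1 libraries alone. The adjusted p-values given for them below are therefore a description only.

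CXCL1 is a classic ligand of CXCR2. In AsPC-1 it measured 3.34 TPM with vehicle, 2.92 with roseoflavin, 4.005 with trametinib and 3.07 with both, and in PANC-1 it measured 33.1, 31.2, 30.4 and 27.2 TPM in the same order. Every PANC-1 library stood well above every AsPC-1 library, with a ratio of the means of 9.15. The difference of PANC-1 minus AsPC-1 on the log2(TPM + 1) scale was 2.87 (SE 0.0746, limma, Benjamini-Hochberg adjusted p = 1.16e-07).

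CXCL2, its close paralog, went the other way. AsPC-1 libraries held 4.03, 3.56, 4.45 and 4.83 TPM and PANC-1 libraries 0.637, 0.444, 0.205 and 0.424 TPM, in the same order of treatments. The groups did not overlap, the mean was 9.86-fold higher in AsPC-1, and the log2 difference was -1.87 (SE 0.131, limma adjusted p = 1.24e-05). CXCL3, the third of these near-identical chemokines, followed CXCL2. Its levels were 2.98, 2.84, 3.25 and 4.005 TPM in AsPC-1 and 0.201, 0.327, 0.065 and 0.2 TPM in PANC-1, a log2 difference of -1.83 (SE 0.112, limma adjusted p = 6.36e-06). Of the 50-base stretches of their transcripts, 4.81% in CXCL1, 12.5% in CXCL2 and 6.01% in CXCL3 occur in another of the 3, and how reads from such stretches were counted is not given in the sources used here. The split of reads among these 3 genes is therefore uncertain, and these shares do not measure by how much.

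CXCL5, which also binds CXCR2, showed the widest gap of the 10. It measured 8.36 TPM with vehicle, 7.84 with roseoflavin, 14.9 with trametinib and 13.4 with both in AsPC-1, and 0.137, 0.170, 0.118 and 0.182 TPM in PANC-1. The AsPC-1 mean was 73.3-fold that of PANC-1, a fold that rests on 2 to 4 inferred reads per PANC-1 library. The log2 difference was -3.35 (SE 0.160, limma adjusted p = 1.85e-06). CXCL8, or interleukin-8, the ligand of both CXCR1 and CXCR2, was low in both lines. AsPC-1 libraries held 1.03, 1.152, 1.43 and 1.24 TPM and PANC-1 libraries 2.41, 3.52, 2.50 and 1.95 TPM. Its PANC-1 libraries were all above its AsPC-1 libraries, by 2.14-fold in the mean, with a log2 difference of 0.68 (SE 0.146, limma adjusted p = 0.00406). That call did not survive quantile normalization, which left 0.14 (limma adjusted p = 0.392).

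**Figure D1:**
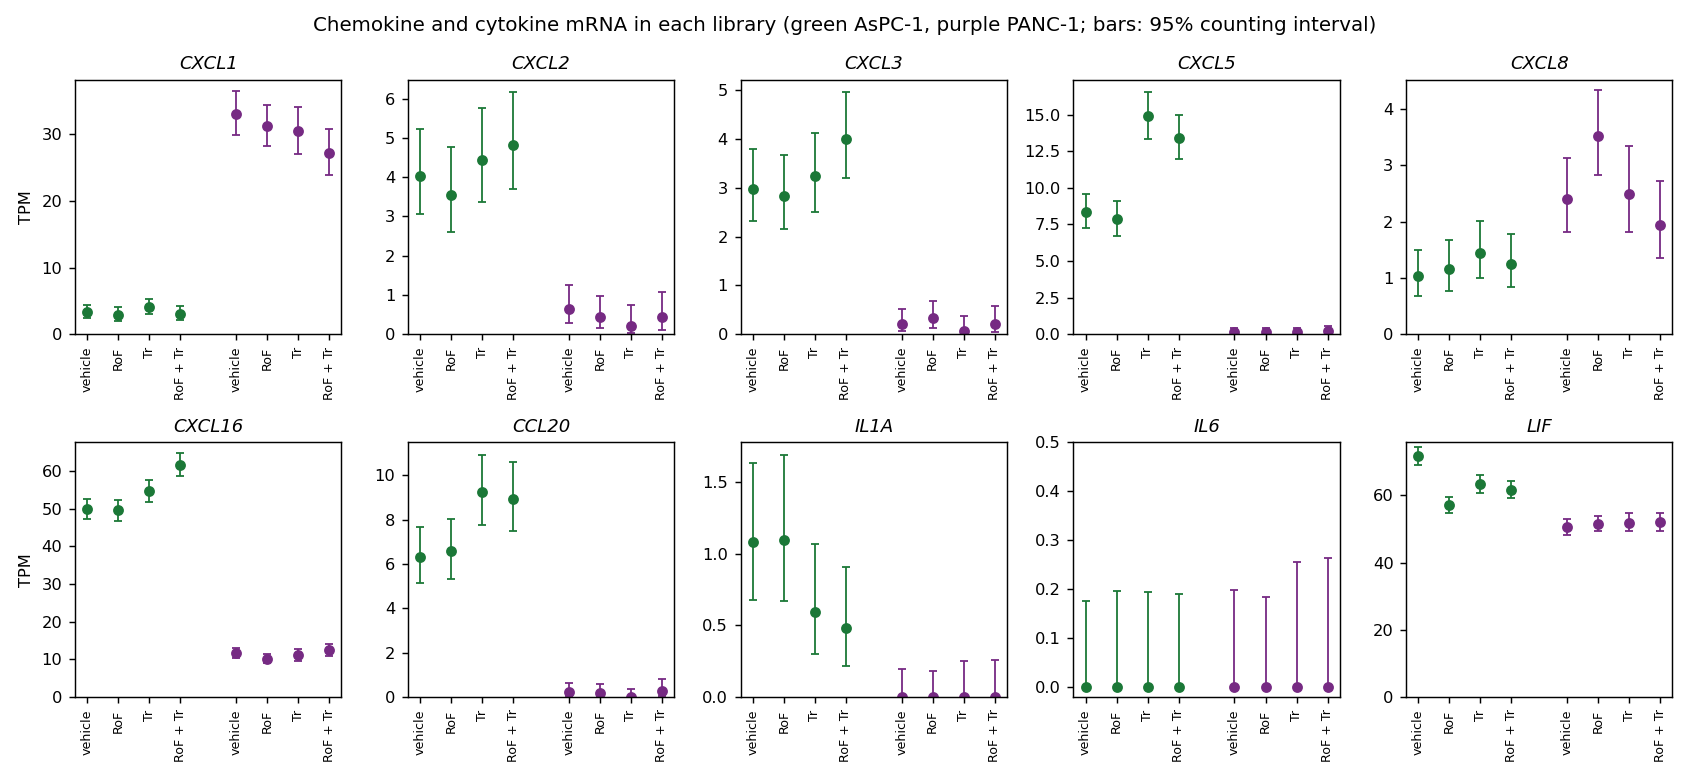
TPM of each of the 10 genes in the 8 libraries, 1 panel per gene with its own linear axis, AsPC-1 in green and PANC-1 in purple, treatments along the x axis (RoF is roseoflavin, Tr is trametinib), and bars for the 95% counting interval of the inferred reads. CXCL1 sits at 2.92 to 4.005 TPM in AsPC-1 and 27.2 to 33.1 TPM in PANC-1, while CXCL5 runs from 7.84 to 14.9 and from 0.118 to 0.182 TPM, and IL6 is at 0 in all libraries.

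CXCL16 and CCL20 were both higher in AsPC-1. CXCL16 (ENSG00000161921, chr17:4733526-4739922, minus strand) was the most abundant chemokine of the 10 in AsPC-1, at 49.953, 49.6, 54.7 and 61.8 TPM with vehicle, roseoflavin, trametinib and both. In PANC-1 it measured 11.7, 10.0, 11.1 and 12.5 TPM, so the lines did not overlap and AsPC-1 was 4.77-fold higher in the mean (log2 difference -2.16, SE 0.0711, limma adjusted p = 3.27e-07). CCL20 (ENSG00000115009, chr2:227805739-227817564, plus strand) was at 6.32, 6.58, 9.24 and 8.93 TPM in AsPC-1 and at 0.210, 0.195, 0 and 0.279 TPM in PANC-1. The PANC-1 values stand for 3 inferred reads in 3 libraries and none in the library treated with trametinib, where 3 reads would be 0.270 TPM. The AsPC-1 mean of CCL20 was 45.4-fold higher, with a log2 difference of -2.89 (SE 0.134, limma adjusted p = 1.62e-06).

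Of the cytokines, LIF was abundant in both lines, IL1A was found in AsPC-1 libraries, and IL6 was listed at 0 throughout. LIF (ENSG00000128342, chr22:30240447-30246851, minus strand) was at 71.8, 57.1, 63.3 and 61.6 TPM in AsPC-1 and at 50.6, 51.5, 51.9 and 52.1 TPM in PANC-1. It was the highest of the 10 genes in each of the 8 libraries except AsPC-1 treated with both compounds, where CXCL16 at 61.8 TPM and LIF at 61.6 TPM were level. Its lines differed by 1.23-fold in the mean, without overlap (log2 difference -0.29, SE 0.0646, limma adjusted p = 0.00489). The LIF difference was larger under other scalings, -0.68 with mitochondrial genes left out and -0.75 after quantile normalization. IL1A (ENSG00000115008, chr2:112773915-112784590, minus strand) was at 1.08, 1.10, 0.595 and 0.478 TPM in AsPC-1 and was listed at 0 in the 4 PANC-1 libraries. Set against 3 reads in a PANC-1 library, 0.209 TPM at most, IL1A was at least 3.88-fold higher in AsPC-1, and the limma log2 difference was -0.84 (SE 0.127, adjusted p = 7.28e-04). IL6 (ENSG00000136244, chr7:22725884-22732002, plus strand) was listed at 0 in all 8 libraries, where 3 reads would be 0.143 to 0.215 TPM, so it entered no test.

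Ordered by mean level, AsPC-1 ran LIF, CXCL16, CXCL5, CCL20, CXCL2, CXCL1, CXCL3, CXCL8 and IL1A, and PANC-1 ran LIF, CXCL1, CXCL16 and CXCL8, with the rest under 0.5 TPM. In AsPC-1 the libraries of LIF and CXCL16, of CXCL5 and CCL20, of CXCL2, CXCL1 and CXCL3, and of CXCL8 and IL1A overlapped within each of these runs. In PANC-1 the 4 genes at the top did not overlap, whereas below them the neighbours in the order CXCL2, CXCL3, CCL20 and CXCL5 did, and IL1A and IL6 were listed at 0.

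All 9 tested members passed the test between the lines, 2 higher in PANC-1 and 7 higher in AsPC-1. Over all 19122 genes tested, 83.8% passed, 62.3% higher in PANC-1 and 21.5% higher in AsPC-1, so passing is no mark of these genes, and 7 of the 9 had the direction of the smaller share. Of these 7, 5 (CXCL2, CXCL3, CXCL5, CCL20 and IL1A) passed the filter of 1 TPM through AsPC-1 libraries alone and so had to differ. Their adjusted p-values are therefore a description only, and the counts and the median over the 9 support nothing. Their libraries did not overlap between the lines in 9 of 9, against 79.2% of all genes, 59.4% higher in PANC-1 and 19.8% higher in AsPC-1. The median log2 difference of the 9 was -1.83, against 0.55 for all genes. The median of all genes depends on the scaling: it was 0.22 with the mitochondrial genes left out and 0.04 after quantile normalization, and the share of calls higher in PANC-1 went from 74.4% to 60.9% and 52.6%. The direction of each of the 9 was the same under both scalings. Relative to the median of all genes, CXCL1 stood at 2.31, CXCL8 at 0.13, LIF at -0.85 and CXCL5 at -3.90.

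**Figure D2:**
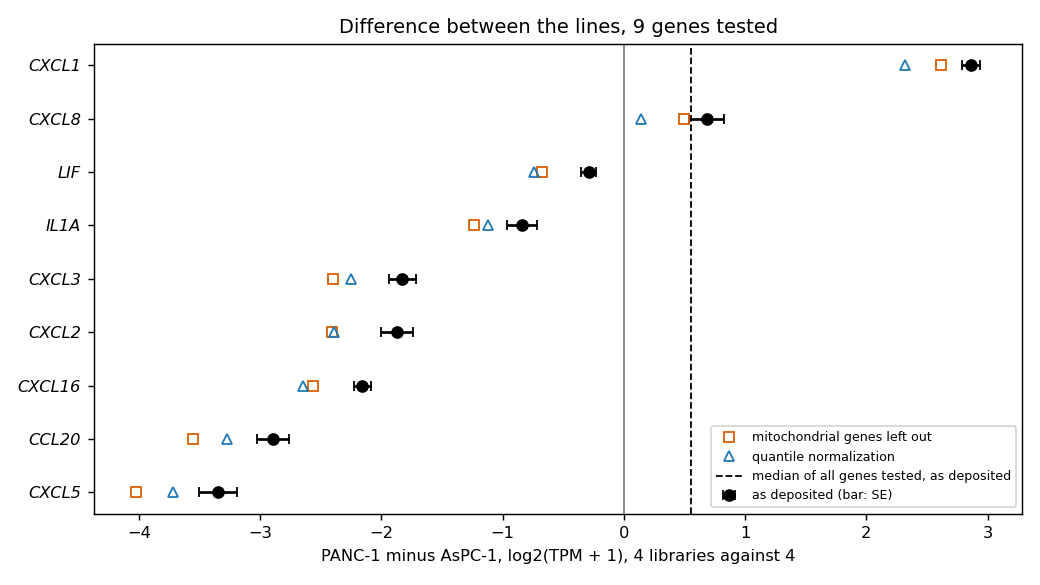
Difference in log2(TPM + 1), PANC-1 minus AsPC-1, for the 9 tested genes: black points with the standard error as bars for the values as deposited, open squares with mitochondrial genes left out, open triangles after quantile normalization, and a dashed line at the median of all genes, 0.55. CXCL1 at 2.87 and CXCL8 at 0.68 lie to the right of 0, and the other 7 run from -0.29 for LIF to -3.35 for CXCL5.

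Receptors for the neutrophil chemokines were at or near 0 in either line, while LIFR, IL6ST and IL1R1 stood high in PANC-1, the line with less LIF and no listed IL1A. CXCR1 and CXCR6 were listed at 0 in all 8 libraries, CXCR2 in 7 of them, with 0.04 TPM in the other, and CCR6 did not exceed 0.504 TPM. LIFR, the chain that binds LIF, was at 24.5 to 26.6 TPM in PANC-1 and 0.527 to 0.646 TPM in AsPC-1 (log2 difference 4.07, limma adjusted p = 3.49e-09). IL6ST, the signal-transducing chain shared by IL-6 and LIF, was at 60.017 to 61.0 against 12.2 to 15.3 TPM, and IL1R1 at 7.71 to 8.59 against 0.638 to 1.26 TPM. IL6R, the chain that binds IL-6, and IL1RAP, the second chain of the IL-1 receptor, did not pass the test. Both were called higher in AsPC-1 under the other scalings, at -0.36 and -0.51 with mitochondrial genes left out and at -0.55 and -0.76 after quantile normalization. Of the 7 receptor and protease genes tested, 5 were called higher in PANC-1 and none lower, where 62.3% and 21.5% of all genes were. Under both other scalings the split was 4 higher and 2 lower, and ADAM10, at 0.55, lost its call, while ADAM17 kept its call from 1.23 as deposited.

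Of 11 further chemokines and cytokines tested, 7 were higher in PANC-1 and 3 in AsPC-1, near the 62.3% and 21.5% of all genes. The counts were 6 and 3 after quantile normalization, and 7 and 4 of 13 tested with mitochondrial genes left out. CX3CL1, the membrane-bound chemokine of CX3CR1, was at 116 to 138 TPM in PANC-1 and listed at 0 in AsPC-1. CSF1, the macrophage growth factor, was at 58.1 to 70.6 against 2.23 to 3.08 TPM, whereas IL18 was at 177 to 216 TPM in AsPC-1 against 31.9 to 36.3 TPM. MIF was at 752 to 1070 TPM over both lines, and its difference of 0.32 lost its call under both other scalings, with the sign reversed (-0.07) when mitochondrial genes were left out. CCL2, chosen after its values were seen, was at 32.9 to 36.5 TPM in PANC-1 and at 0.057 TPM or lower in AsPC-1.

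**Figure D3:**
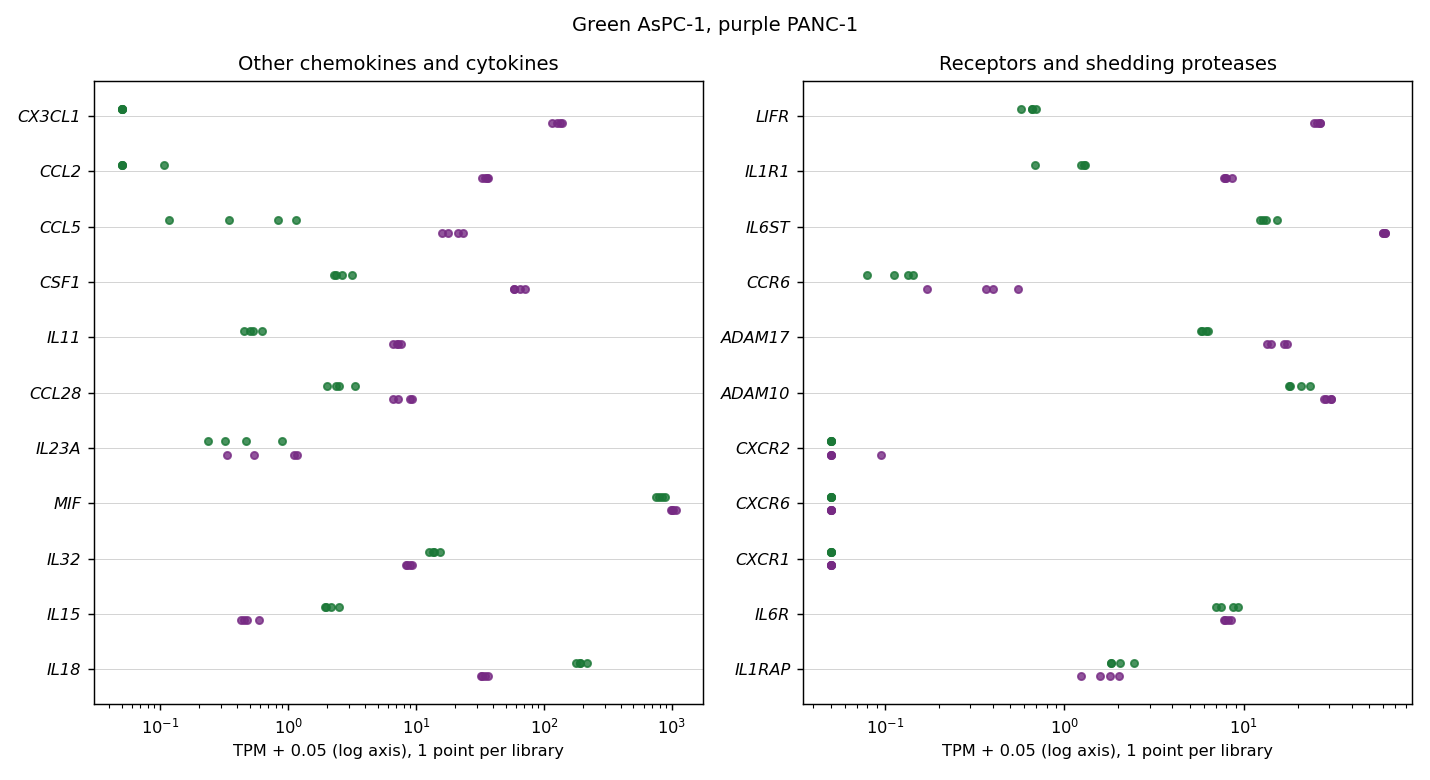
TPM + 0.05 on a log axis for 11 other chemokines and cytokines (left) and for the receptors and shedding proteases of the members (right), 1 point per library, AsPC-1 in green and PANC-1 in purple. LIFR is at 0.527 to 0.646 TPM in AsPC-1 and 24.5 to 26.6 TPM in PANC-1, and CXCR1 and CXCR6 are at 0 in all libraries.

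Most genes of the NF-kB pathway were higher in PANC-1, where CXCL1 was high and CXCL2, CXCL3, CXCL5 and CCL20 were low, but so were 62.3% of all genes tested. Of 16 tested NF-kB feedback and target genes, 13 were higher in PANC-1 and 3 in AsPC-1, or 11 and 4 with mitochondrial genes left out and 10 and 5 after quantile normalization, and their median difference was 0.76 against 0.55 for all genes. ICAM1, an adhesion molecule induced by NF-kB, was at 295 to 365 TPM in PANC-1 against 1.43 to 1.90 TPM in AsPC-1 (log2 difference 7.01, the largest of the 16). Of the others with the highest mean TPM, TNFAIP2 was at 0.63, TNIP1 at 0.24 and IER3, higher in AsPC-1, at -0.24. TNIP1 had the other sign under the other scalings, at -0.14 with mitochondrial genes left out and -0.20 after quantile normalization. The core NF-kB signalling genes gave 12 higher in PANC-1 and 2 higher in AsPC-1 among 16 (median 0.54), and 8 against 4 and 8 against 6 under those scalings. Downstream of LIF and IL-6, STAT3 was at 98.8 to 104 TPM in PANC-1 and 10.1 to 11.4 TPM in AsPC-1, and SOCS3, a feedback inhibitor of that pathway, was at 58.3 to 65.4 against 5.53 to 6.18 TPM. Among 8 JAK-STAT3 genes, 5 were higher in PANC-1 and 1, PIM1, was higher in AsPC-1, which became 5 against 3 and 3 against 3. Genes that act on AU-rich mRNAs were split, 3 and 3 of 7 tested, and 2 against 5 under both other scalings.

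Among the fitted effects of a compound within a line, the 3 that were farthest from 0 for the members were those of trametinib in AsPC-1. No gene passed the adjusted threshold for trametinib in AsPC-1, 0% of 19122, members included, while 2691 had an unadjusted p under 0.05 in limma. The values of the members are therefore given as they stand. In both AsPC-1 libraries with trametinib, CXCL5 and CCL20 were above both libraries without it, and IL1A was below. IL1A had reached 1 TPM in the 2 libraries without trametinib alone, and so entered the test through them: its values are a description.

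CXCL5 had the clearest gap. Its AsPC-1 values were 8.36 and 7.84 TPM without trametinib and 14.9 and 13.4 TPM with it, inferred from 207, 174, 334 and 307 reads. Trametinib against vehicle gave a ratio of 1.78 (95% interval 1.49 to 2.13), and trametinib added to roseoflavin gave 1.71 (1.41 to 2.07). The fitted log2 effect was 0.73 (95% interval 0.53 to 0.94, limma unadjusted p = 5.98e-04, adjusted p = 0.271), and over the alternative settings it was 0.70 to 0.79, with an adjusted p of 0.276 to 0.568. CCL20 was at 6.32 and 6.58 TPM without trametinib and at 9.24 and 8.93 TPM with it. Its ratios were 1.46 (1.12 to 1.91) and 1.36 (1.04 to 1.79), and its log2 effect was 0.44 (95% interval 0.09 to 0.78, limma adjusted p = 0.315). IL1A was at 1.08 and 1.10 TPM without and at 0.595 and 0.478 TPM with trametinib, from 22, 20, 11 and 9 inferred reads. The IL1A ratios were 0.552 (0.242 to 1.19) and 0.437 (0.175 to 1.00), intervals that both hold 1, and the log2 effect was -0.44 (limma adjusted p = 0.313).

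CXCL16, the shed chemokine, was at 49.953 and 49.6 TPM without and 54.7 and 61.8 TPM with trametinib in AsPC-1, with ratios of 1.09 (1.02 to 1.18) and 1.25 (1.16 to 1.34). Its limma effect of 0.22 had an adjusted p of 0.456. CXCL2, CXCL3 and CXCL8 also had both trametinib libraries above both others, by 0.24, 0.24 and 0.16 on the log2 scale, while CXCL1 and LIF overlapped. For each of CXCL2, CXCL3 and CXCL8, the counting intervals of both trametinib ratios held 1. Of the 9 tested members, 6 did not overlap and were higher with trametinib and 1 did not overlap and was lower, the latter IL1A, where 24% and 13.3% of all genes did so (37.3% in either direction). The median effect of the 9 was 0.22, against 0.02 for all genes. IL1A passed the filter only through the libraries without trametinib and so had to be lower with it. Its place in the count and in the median is therefore a description only. With 2 libraries against 2, differences within a line of this size cannot be told apart from the spread between cultures.

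In PANC-1 most of these members were too low to compare between treatments. CXCL5, CCL20 and IL1A were at 0 to 4 inferred reads there, too few to show a ratio of the size seen in AsPC-1. CXCL1, with 250 to 411 reads, was at 33.1 and 31.2 TPM without and 30.4 and 27.2 TPM with trametinib, a log2 effect of -0.16 (95% interval -0.34 to 0.02, limma adjusted p = 1). CXCL8 was at 2.41 and 3.52 TPM without and 2.50 and 1.95 TPM with it, CXCL16 at 11.7 and 10.0 and at 11.1 and 12.5 TPM, and the libraries of both genes overlapped. LIF was flat, at 50.6 and 51.5 against 51.9 and 52.1 TPM. Without overlap, 3 members were lower (CXCL1, CXCL2 and CXCL3) and 1 was higher (LIF), against 11.6% and 16.1% of all genes (27.8% in either direction). CXCL2 and CXCL3 rested on 1 to 8 inferred reads per library, the counting intervals of their trametinib ratios held 1, and the LIF effect was 0.03 on the log2 scale. In PANC-1, 0% of 19122 genes passed the adjusted threshold for trametinib (919 at an unadjusted p under 0.05, limma).

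Whether the trametinib effect differed between the lines was tested directly. The difference of the effects, PANC-1 minus AsPC-1, was -0.74 for CXCL5 (95% interval -1.02 to -0.45, limma adjusted p = 0.493), -0.53 for CCL20 (adjusted p = 0.514) and -0.29 for CXCL1 (adjusted p = 0.508). For CXCL5 and CCL20 the PANC-1 levels were so low that the log2(TPM + 1) scale compresses any ratio there, so this contrast mostly restates the effect in AsPC-1. No gene passed it, 0% of 19122, with 1854 at an unadjusted p under 0.05 in limma. The ERK output genes were lower with trametinib in 5 of 6 in AsPC-1 and 6 of 6 in PANC-1, with a median of -0.20 in each, and none passed the threshold. Over all 19122 genes, 7849 and 8340 were lower, with medians of 0.02 and 0.01. With roseoflavin, 4 of the 6 ERK output genes were lower in each line, with medians of -0.12 in AsPC-1 and -0.06 in PANC-1. DUSP6, an ERK phosphatase induced by ERK, was at -0.34 with trametinib in AsPC-1 (limma adjusted p = 0.271) and -0.42 in PANC-1 (adjusted p = 0.474).

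**Figure D4:**
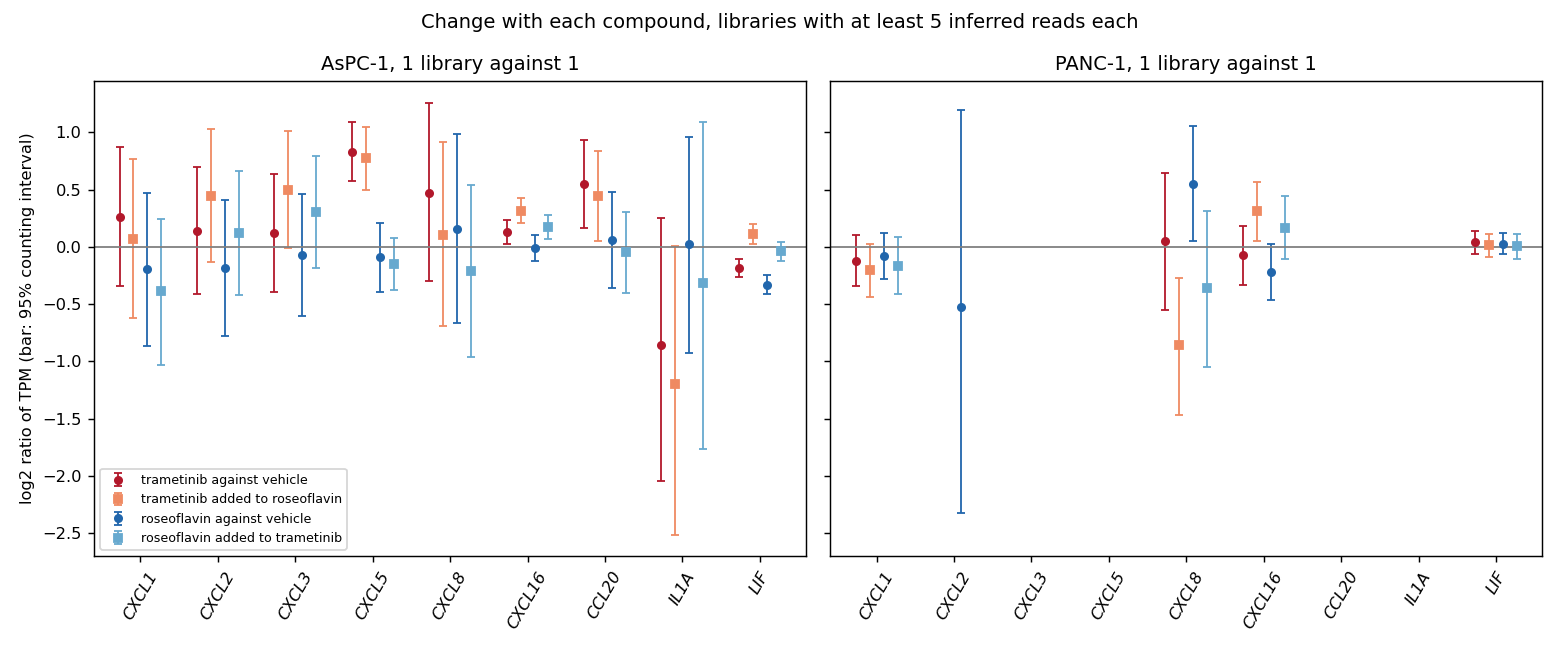
The log2 ratio of TPM between single libraries of a line for each tested member, with 95% counting intervals as bars, where both libraries held at least 5 inferred reads. Red and orange are trametinib against vehicle and added to roseoflavin, dark and light blue are roseoflavin against vehicle and added to trametinib. In AsPC-1 both trametinib ratios of CXCL5 (1.78 and 1.71) and of CCL20 (1.46 and 1.36) have intervals above 0 on this scale.

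For roseoflavin, too, no member passed. In AsPC-1 no gene passed, 0% of 19122 (2163 at an unadjusted p under 0.05, limma), and the effects of the 9 members ran from -0.22 for CXCL1 to 0.09 for CXCL3. CXCL1 was at 3.34 and 4.005 TPM without roseoflavin and 2.92 and 3.07 TPM with it (95% interval of the effect -0.40 to -0.04, limma adjusted p = 0.402), and the counting intervals of both ratios held 1. LIF was at 71.8 TPM with vehicle and 57.1 TPM with roseoflavin, a ratio of 0.795 (0.751 to 0.842). Added to trametinib, roseoflavin gave LIF a ratio of 0.973 (0.918 to 1.03), and the vehicle library was the highest of the 4. CXCL1 and LIF were the 2 members without overlap, both lower with roseoflavin, against 21.6% of all genes lower and 10.6% higher (32.3% in either direction).

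In PANC-1 the roseoflavin effects of the members ran from -0.12 for CXCL1 to 0.17 for CCL20, and again no gene passed, 0% of 19122 (2074 at an unadjusted p under 0.05, limma). CXCL8 had the widest spread among the members with at least 20 reads. It was at 2.41 TPM with vehicle and 3.52 TPM with roseoflavin, from 56 and 88 inferred reads, a ratio of 1.46 (1.03 to 2.08). Against that, roseoflavin added to trametinib gave 0.780, and trametinib added to roseoflavin 0.552 (0.360 to 0.829), so the roseoflavin library alone stood above the other 3. CXCL5, at 2 to 4 reads, was the only member whose groups did not overlap, against 22.9% of all genes higher and 22.7% lower (45.5% in either direction). The difference of the roseoflavin effect between the lines was 0.20 or smaller in size for each of the 9 members, and no gene passed that test, 0% of 19122 (2227 at an unadjusted p under 0.05, limma).

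The combination did not depart from the sum of both compounds past the threshold for any gene, 0% of 19122 (536 at an unadjusted p under 0.05, limma). Among the members, CXCL16 had an interaction of 0.27 on the log2 scale (95% interval 0.00 to 0.53, limma unadjusted p = 0.0482, adjusted p = 1). With both compounds it was at the highest value of its line in AsPC-1, 61.8 TPM, and in PANC-1, 12.5 TPM. CXCL8 had an interaction of -0.43 (95% interval -1.08 to 0.23), and CXCL5 one of -0.01 (-0.89 to 0.87).

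Among named genes that averaged 5 TPM or more, those whose 6 log2 changes of treated against vehicle libraries lay nearest to CXCL1 were CENPK (distance 0.132), INTS8 (0.143) and LPAR6 (0.146). Nearest to CXCL8 were ABHD14A (0.255), RGS20 (0.286) and CETN3 (0.301). The distance is Euclidean over 6 values, 3 in each line, which share the vehicle library of the line, and for CXCL1 it reflects changes that were all small.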

How the data were processed

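Library preparation used the TruSeq stranded mRNA kit, per the labels' protocols. The authors deposited TPM per gene in a single table; the submitters' processing notes list STAR 2.7.3a, HTSeq 2.0.2 and hg38, and the annotation and the handling of shared reads are not given in the sources used here. Blank rows (985926) were dropped. Samples were grouped by line and treatment. Values were analysed as log2(TPM + 1), which understates changes of low genes, over the 19122 genes that reached 1 TPM in 2 libraries or more, with limma 3.58.1 in R 4.3.3 (trended eBayes, Benjamini-Hochberg, two-sided, threshold 0.05). The lines were compared with both compounds as additive terms (4 residual degrees of freedom), compounds with a term for each within each line (2), and the interaction with the product added (3). With no replicate cultures, p-values measure only the spread between these libraries. Reads were inferred from TPM and GENCODE 29 exon lengths, with a departure of up to 15% allowed for each member; 95% ratio intervals are exact binomial. The fits were tested on simulated data.

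All 10 genes are named throughout, receptors always, and of each other list at most the 4 genes with the highest mean TPM; the genes nearest to CXCL1 and CXCL8 are the 3 with the smallest distance. The members and lists were chosen with earlier results of these data known. Alternatives were a pseudocount of 0.1, no filter, a mean of at least 10 TPM, quantile normalization, mitochondrial genes left out, each line alone, and each library left out. Lists covered receptors, IL-1 processing, other cytokines, NF-kB, JAK-STAT3, AU-rich decay, ERK output and cell markers. IL-1 antagonist and processing genes gave 1 higher and 1 lower in PANC-1 of 3 tested. The counts were 0 and 3 after quantile normalization, and 0 and 3 of 4 tested with mitochondrial genes left out. Of the fibroblast and leukocyte markers, 2 each were tested, with 1 higher and 1 lower, and 2 lower, in PANC-1.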

Additional observations from a re-analysis of the deposited data

How the results depend on the processing

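Between the lines, 16027 genes passed with the filter of 1 TPM, and 8388 passed among the 9368 genes that averaged 10 TPM or more, a lower count because fewer genes were tested. Leaving out each library in turn gave 15511 to 15755. CXCL8 was the member whose call between the lines was lost: 0.14 with an adjusted p of 0.392 (limma) after quantile normalization; the cause was not tested. The other 7 comparisons gave 0 genes under each alternative that could be run for them, and no member changed direction between the lines. The MIF difference between the lines, 0.32, had the other sign, -0.07, with mitochondrial genes left out. IL1A had fewer alternatives because it failed some filters. No paired analysis was possible because each group had 1 library and the labels carry no replicate numbers. Depth limits CXCL2, CXCL3, CXCL5, CCL20, IL1A and IL6 in PANC-1, each inferred from 8 reads or fewer per library.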

Other observations

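Beyond the genes named above, CCL5 and IL11, both chosen after their values were seen, were at 16.0 to 23.1 TPM and 6.59 to 7.54 TPM in PANC-1 and at 0.066 to 1.09 TPM and 0.4 to 0.57 TPM in AsPC-1. IL33, CSF3, CXCL9 and CXCL17 were listed at 0 in the 8 libraries. ZFP36, which promotes the decay of AU-rich mRNAs, was at 709 to 793 TPM in PANC-1 against 124 to 152 TPM in AsPC-1, while the related ZFP36L1 was at 52.0 to 55.4 TPM against 90.3 to 105 TPM. IER3, an early response gene that NF-kB can induce, was at 319 to 379 TPM in PANC-1 and 351 to 470 TPM in AsPC-1.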
